A study of Mus musculus with 19 samples.

Results

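Livers of thioacetamide-treated mice that had received AAV-miR-34b/c were compared with livers of vehicle-treated mice, to describe which transcripts still differed from vehicle liver after the vectors. All 9290 genes that passed a filter on low counts, of 31053 listed, entered the comparison of 7 AAV-miR-34b/c libraries with 5 vehicle libraries, 12 of the 19 libraries of the series. The animals were male C57BL/6 mice, 6 to 8 weeks old at the start. Thioacetamide (TAA), a hepatotoxin that hepatocytes around the central vein convert to reactive products, was injected intraperitoneally for 12 weeks at doses rising from 50 to 400 mg/kg, and vehicle animals received PBS. At week 10 the AAV-miR-34b/c group received 2 AAV8 vectors intravenously, one for miR-34b and one for miR-34c, at 1e13 genome copies/kg, and livers were collected 4 weeks later. Both vectors carried the hepatocyte-specific TBG promoter, so that expression was directed to hepatocytes and not to stellate or immune cells. A further group of TAA-treated mice, with 7 libraries, had received AAV-GFP under the same schedule, and its values are given beside those of AAV-miR-34b/c. Vehicle mice received no TAA and their labels name no vector, so TAA and vector cannot be told apart in the comparison with vehicle.

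MicroRNAs guide Argonaute proteins to transcripts that pair with their seed, the bases near the 5′ end, and paired transcripts are translated less and degraded faster. The miR-34 family is transcribed under p53, and its reported targets include cyclins, their kinases and growth factor receptors. In liver injured by TAA, hepatocytes die around central veins, macrophages and neutrophils enter, and stellate cells lay down collagen. The mature sequences of miR-34a-5p and miR-34b-5p from RefSeq (GRCm38.p6) are shown because the seed they share, bases 2 to 8 in capitals, defines the target sites described further on. miR-34a-5p lies at chr4:150068473-150068494 on the plus strand and miR-34b-5p at chr9:51103610-51103632 on the minus strand.
miR-34a-5p: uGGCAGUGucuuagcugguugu
miR-34b-5p: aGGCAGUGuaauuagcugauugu
miR-34c-5p belongs to the same family, and its sequence was not used here. The levels of the miRNAs themselves were not analysed here.

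Total counts lay between 2214073 and 4145454 in vehicle libraries and between 2717503 and 5208405 in AAV-miR-34b/c libraries. Several libraries were not independent in appearance. Vehicle 1 and 4, vehicle 3 and 5, and AAV-miR-34b/c 1 and 2, 3 and 4, and 5 and 7 were closer to each other than any other pair of their group. Their coefficients of variation beyond counting noise were at most 0.130 in vehicle and 0.123 after AAV-miR-34b/c, against at least 0.201 and 0.211 in the other pairs, and the labels do not say why. With each close pair summed, 3 vehicle and 4 AAV-miR-34b/c samples remained, and counts under that grouping are given beside those of the gene lists. AAV-GFP 1 and 2 were as close, at 0.109, and AAV-GFP 1 and 3, 2 and 3, and 3 and 4 were at 0.195 to 0.197. The AAV-GFP counts set beside those of the lists use the libraries as deposited. AAV-miR-34b/c 1 and 2 stood apart on the second principal component, at -45.7 and -50.4, and on the first they lay at -24.0 and -25.2, near vehicle libraries (-49.2 to -24.9), as did AAV-GFP 6 and 7 (-22.7 and -27.6), whereas AAV-miR-34b/c 3 to 7 lay at 22.9 to 48.4. In AAV-miR-34b/c 1 and 2 mitochondrial genes took 3.71% and 3.73% of the counts against 8.21% to 10.8% in AAV-miR-34b/c 3 to 7 and 3.73% to 5.65% in vehicle libraries. Vehicle 1 and 4 held the highest vehicle levels of Saa1 and S100a8, genes chosen here after their values were seen. Hepatocyte markers were abundant in every library, the summed level of the 20 markers lying between 81489 and 96942 CPM (counts scaled by library depth) in vehicle and between 72723 and 112851 CPM in AAV-miR-34b/c. In whole liver, fewer cells of a type and less RNA per cell cannot be told apart.

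In AAV-miR-34b/c livers, 2037 genes differed from vehicle at an adjusted p under 0.05 (edgeR quasi-likelihood test, Benjamini-Hochberg), 21.9% of those tested. Of these, 1131 genes (12.2%) were higher and 906 (9.75%) lower. In the same test, AAV-GFP livers differed from vehicle in 1212 of 9522 genes (12.7%), with 718 higher (7.54%) and 494 lower (5.19%). The vector groups differed from each other in 311 of 9252 genes (3.36%), of which 180 (1.95%) were higher and 131 (1.42%) lower after AAV-miR-34b/c than after AAV-GFP. These 3 comparisons share libraries, so their values are set side by side only. The count against vehicle rested strongly on which libraries entered. Summing the close pairs left 331 of 10604 genes (3.12%), 203 higher (1.91%) and 128 lower (1.21%). Leaving out AAV-miR-34b/c 1 and 2 gave 3878 of 9098 genes (42.6%), with 21.1% higher and 21.5% lower. Leaving out vehicle 1 and 4 gave 557 of 9658 genes (5.77%), with 3.52% higher and 2.25% lower.

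**Figure D1:**
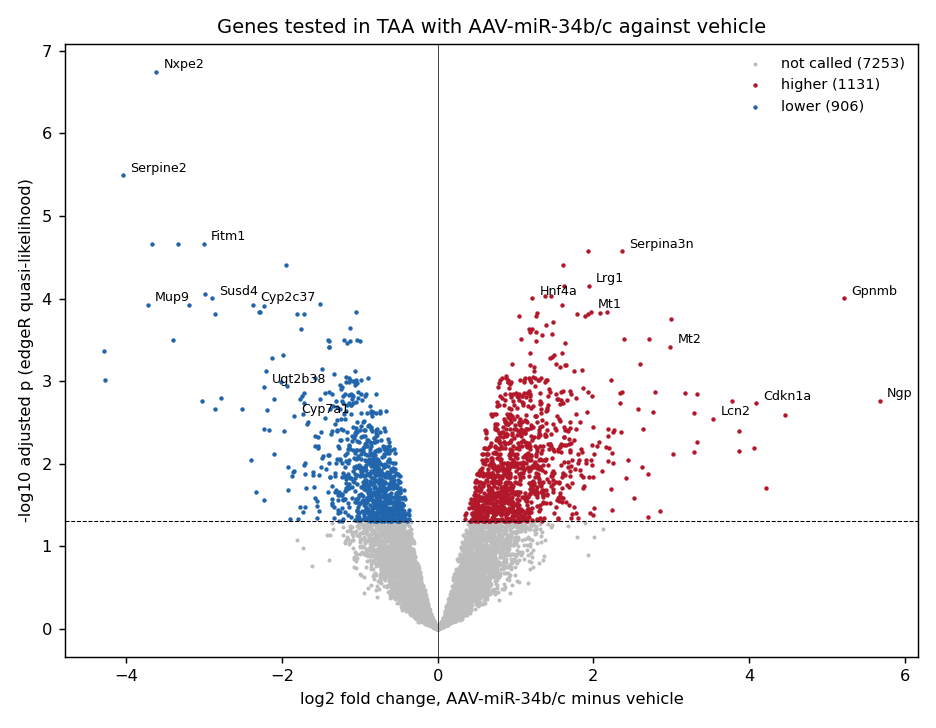
Each point is one of the 9290 genes tested in AAV-miR-34b/c against vehicle, placed by its log2 fold change (x axis) and by the negative log10 of its adjusted p (y axis), with genes past the threshold of 0.05 coloured by direction. The most significant genes lie on the lower side, with Nxpe2 and Serpine2 at the top, and Serpina3n stands highest among the genes labelled on the higher side.

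Apart from genes the study names, most genes named below were picked by adjusted p or fold change in these same libraries. Lack of overlap between groups describes such genes and is no separate support for them. The genes with the smallest adjusted p were led by Nxpe2 (chr9:48318006-48353454 of GRCm38, minus strand). It stood at 31.9, 21.8, 24.5, 28.9 and 28.0 CPM in the 5 vehicle libraries and at 1.2 to 3.08 CPM, median 2.10, in the 7 AAV-miR-34b/c libraries. All 7 libraries lay below all 5 vehicle libraries, with a log2 fold change of -3.62 ± 0.24 (SE, edgeR adjusted p = 1.8e-07). Serpine2, which encodes the protease inhibitor nexin-1, stood at 26, 36.4, 61.4, 20.4 and 50.7 CPM in vehicle and at 0.685 to 3.85 CPM, median 2.64, after AAV-miR-34b/c. Its log2 fold change of -4.04 ± 0.33 (edgeR adjusted p = 3.24e-06) was the more negative of the pair. Nxpe2 and Serpine2 were also lower in AAV-GFP livers than in vehicle, by log2 fold changes of -4.78 and -2.86. Both passed the threshold with the close pairs summed, at adjusted p = 0.000263 and 0.000385.

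Other genes on the lower side fell below every vehicle library in 7 of 7 AAV-miR-34b/c libraries. Fitm1, which partitions triglyceride into lipid droplets, stood at 20.8, 29.4, 31.1, 18.0 and 18.2 CPM in vehicle and at 1.2 to 5.22 CPM, median 2.85, with a log2 fold change of -3.00 ± 0.30. Susd4, a membrane protein that restrains complement, had a log2 fold change of -2.90 ± 0.35, Riok2, a kinase of small ribosomal subunit maturation, one of -1.95 ± 0.21, and Rassf3, a Ras-association domain protein, one of -1.52 ± 0.18. Moxd1, a relative of dopamine beta-hydroxylase, behaved differently in the vector groups. It stood at 127, 63.8, 39.6, 159 and 38.9 CPM in vehicle, at 4.42 to 16.8 CPM, median 6.85, after AAV-miR-34b/c and at 0 to 0.326 CPM after AAV-GFP. The groups did not overlap, and Moxd1 also differed between the vector groups (edgeR adjusted p = 5.81e-06).

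On the higher side, Serpina3n, a secreted serine protease inhibitor of the acute phase (chr12:104406729-104414329, plus strand), stood at 256, 318, 313, 287 and 287 CPM in vehicle and at 800 to 2182 CPM, median 1579, after AAV-miR-34b/c. Every AAV-miR-34b/c library lay above every vehicle library, with a log2 fold change of 2.37 ± 0.24 (edgeR adjusted p = 2.69e-05). In AAV-GFP livers it stood at 114 to 426 CPM, with a log2 fold change against vehicle of -0.22 (edgeR adjusted p = 0.559). Tgm2, the tissue transglutaminase that crosslinks matrix proteins, rose by a log2 fold change of 2.17 ± 0.28, and the actin regulators Coro1c and Cfl1 by 1.93 ± 0.20 and 1.38 ± 0.16. Adra1b, the alpha-1B adrenergic receptor of hepatocytes, rose by 1.62 ± 0.18, the membrane protein gene Tmem176b by 1.61 ± 0.17 and the mitochondrial aldehyde dehydrogenase gene Aldh1b1 by 1.60 ± 0.20. Lyve1, a hyaluronan receptor of sinusoidal and lymphatic endothelium, stood at 15.9, 14.6, 15.1, 15.8 and 24.3 CPM in vehicle and at 40.9 to 52.9 CPM, median 47.1, after AAV-miR-34b/c. No library overlapped, and the log2 fold change of Lyve1 was 1.46 ± 0.17, against 0.39 in AAV-GFP livers. Hnf4a, the transcription factor that maintains hepatocyte identity, rose by 1.21 ± 0.15. For each of these genes, picked by adjusted p in the same libraries, the 7 AAV-miR-34b/c libraries lay above all 5 vehicle libraries. AAV-GFP libraries also lay above every vehicle library for Adra1b (65.9 to 103 CPM), Coro1c (13.1 to 42.0), Cfl1 (52.2 to 81.7) and Aldh1b1 (53.8 to 263). Hnf4a stood at 128 to 259 CPM after AAV-GFP, against 107 to 133 CPM in vehicle.

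The genes were then read by function in 41 lists. Each list is described by the number of tested members that were higher or lower and by the median log2 fold change, beside a median of 0.02 over all 9290 genes and the shares of 12.2% higher and 9.75% lower given above. Counts under another setting are read beside the shares of all genes in that setting. These were 21.1% higher and 21.5% lower without AAV-miR-34b/c 1 and 2, and 3.52% and 2.25% without vehicle 1 and 4. With the close pairs summed they were 1.91% and 1.21%, and for AAV-GFP against vehicle 7.54% and 5.19%.

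**Figure D2:**
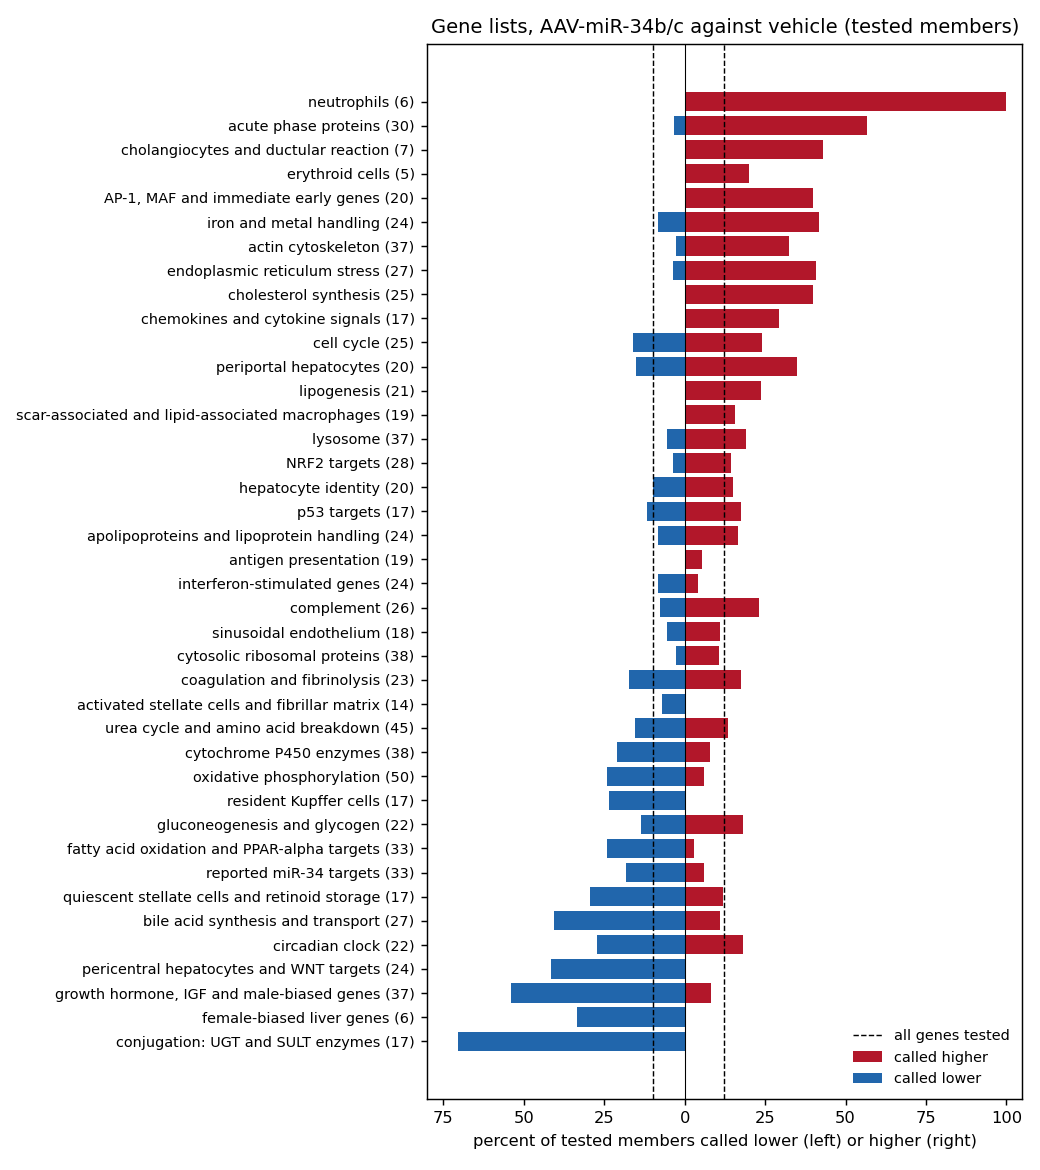
For each gene list with at least 5 tested members, bars give the percentage of tested members that were higher (right) or lower (left) in AAV-miR-34b/c than in vehicle liver at an adjusted p under 0.05, with lines at the shares over all genes tested. Acute phase genes (17 of 30) lie far to the higher side, and conjugation enzymes and male-biased genes farthest to the lower side.

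Acute phase proteins, which hepatocytes secrete in response to IL-6 and IL-1, were the hepatocyte list with the most members above vehicle. Of 30 tested members, 17 were higher and 1 was lower, with a median log2 fold change of 1.25. In AAV-GFP livers 1 was higher and 6 were lower against vehicle, with a median of -0.50, and relative to AAV-GFP 23 were higher and none lower after AAV-miR-34b/c, with a median of 1.51. With the close pairs summed, 7 were higher and none lower. Without vehicle 1 and 4, the count was 19 higher and 1 lower. Leaving out AAV-miR-34b/c 1 and 2 gave 14 higher and 1 lower, with a median of 0.86, where 21.1% of all genes were higher.

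Lrg1, a secreted leucine-rich glycoprotein, stood at 1353, 864, 1705, 1275 and 1469 CPM in vehicle and at 3736 to 7572 CPM, median 4505, after AAV-miR-34b/c. No library overlapped, and its log2 fold change was 1.94 ± 0.22 (edgeR adjusted p = 7.03e-05). Lcn2, the iron-siderophore carrier lipocalin-2, stood at 132, 16.5, 20, 132 and 23.9 CPM in vehicle and at 115 to 1321 CPM, median 884. Of the AAV-miR-34b/c libraries, 6 of 7 lay above all vehicle libraries, and its log2 fold change was 3.54 ± 0.70 (edgeR adjusted p = 0.00286). Lcn2 also stands in the neutrophil list.

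Saa2, a serum amyloid A apolipoprotein, stood at 5605, 214, 213, 5268 and 172 CPM in vehicle and at 2371 to 29396 CPM, median 18801, after AAV-miR-34b/c. Vehicle 1 and 4 overlapped the lowest AAV-miR-34b/c libraries, 5 and 7, and the log2 fold change of 2.85 ± 0.93 passed the threshold by edgeR (adjusted p = 0.0378) but not with the close pairs summed (adjusted p = 0.127). Orm2, an alpha-1-acid glycoprotein, had the same vehicle pattern, at 283, 29.4, 15.6, 281 and 14.2 CPM, and stood at 55.6 to 1941 CPM, median 997, with a log2 fold change of 2.70 ± 0.91 (edgeR adjusted p = 0.0438; 0.142 with the close pairs summed). Reads of the Saa, Orm and Serpina3 families can be shared between near-identical copies, so the values of single members are uncertain. Serpina3k, a hepatocyte serpin of the same cluster as Serpina3n, was the member that was lower, with a log2 fold change of -0.47 ± 0.16.

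Among the most abundant members, Fgb, which encodes the fibrinogen beta chain, stood at 16372, 10964, 10252, 15980 and 12220 CPM in vehicle and at 16492 to 34870 CPM, median 30859. The groups did not overlap, with a log2 fold change of 1.07 ± 0.22 (edgeR adjusted p = 0.0039). Hp, the haemoglobin scavenger haptoglobin, rose by 1.30 ± 0.36, Itih4, an inter-alpha-trypsin inhibitor chain, by 1.0 ± 0.27, and Steap4, a metalloreductase, by 1.58 ± 0.47. Socs3, the feedback inhibitor of IL-6 receptor signalling, rose by 1.55 ± 0.35 and was also higher in AAV-GFP livers than in vehicle, by 1.11. Fgb, Hp and Socs3 were picked with their values in view.

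The promoters of these genes are shown because IL-6 acts on acute phase genes through STAT3, which binds TTCNNNGAA. Motifs were searched on both strands around each start in RefSeq, from 250 bases before to 50 after. The motif was in 8.30% of 32851 promoters, in 7 of 25 promoters of the list (28.0%) and in 4 of 16 promoters of members that differed from vehicle (25%). The matches in those 4 genes are given in capitals with flanking bases, on the strand of the gene. They lie at chr3:83049997-83050045 (Fgb, minus strand), chr14:30886405-30886453 (Itih4, plus), chr5:7960336-7960384 (Steap4, plus) and chr11:117969492-117969540 (Socs3, minus).
Fgb: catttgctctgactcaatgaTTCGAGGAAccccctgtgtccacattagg
Itih4: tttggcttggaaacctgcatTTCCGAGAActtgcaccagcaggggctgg
Steap4: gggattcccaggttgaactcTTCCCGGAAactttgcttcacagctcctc
Socs3: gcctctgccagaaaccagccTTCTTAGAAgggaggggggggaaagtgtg

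**Figure D3:**
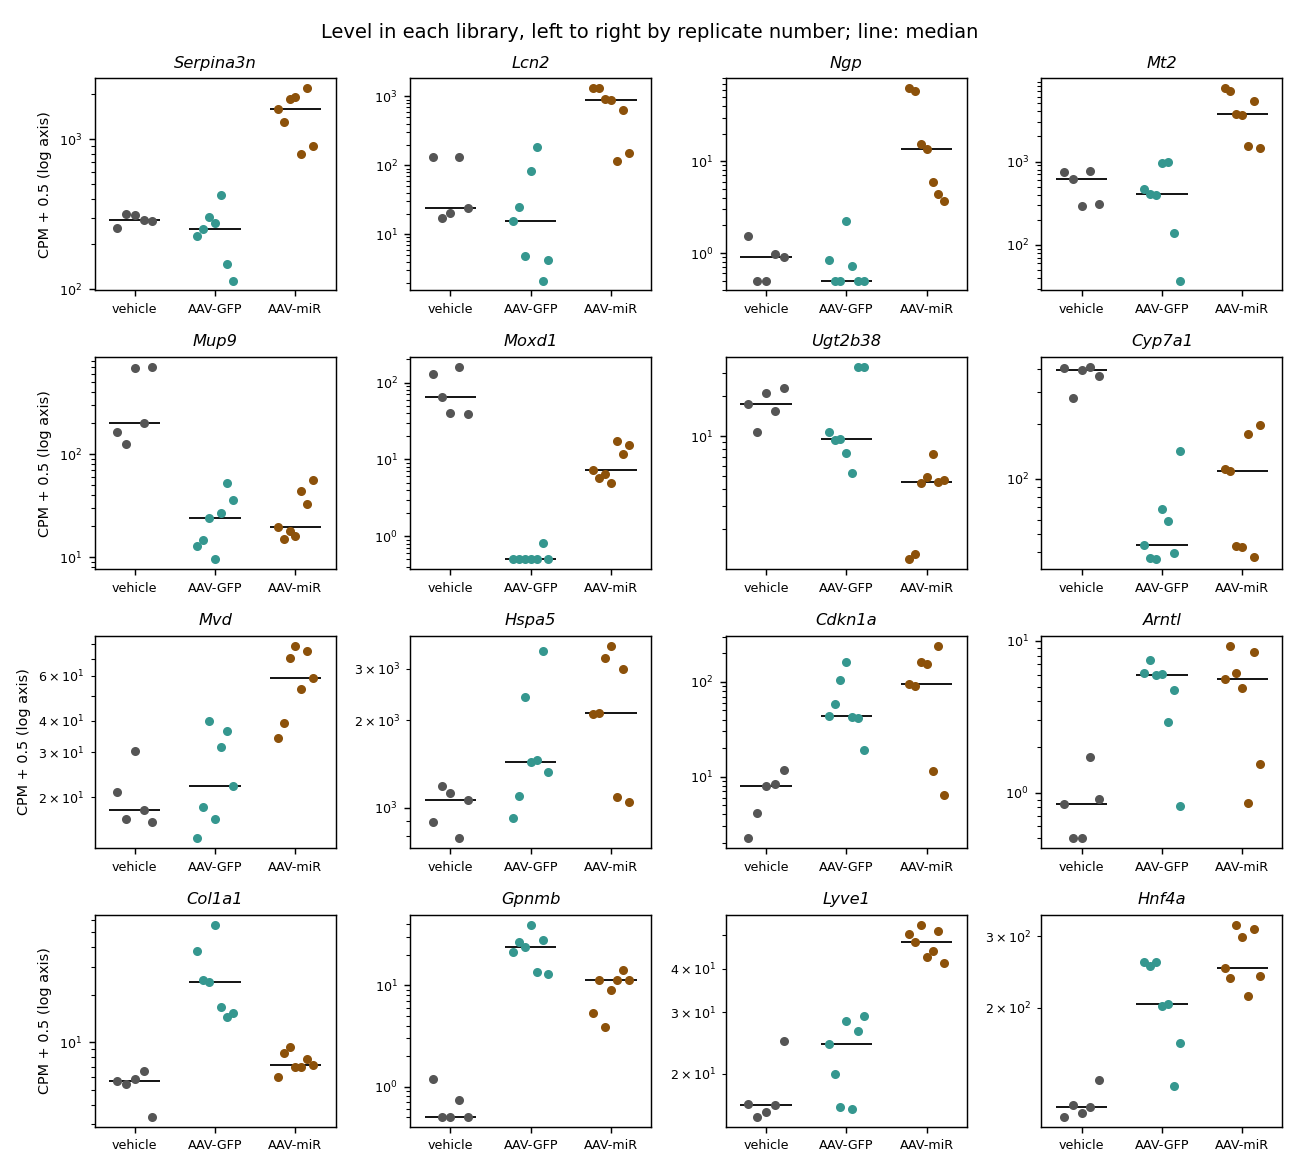
Levels of selected genes in every library (y axis, CPM plus 0.5 on a log scale), in columns by group, with 1 point per library and a line at the group median. Serpina3n and Mt2 separate AAV-miR-34b/c from both other groups, and Mup9 and Cyp7a1 are low in both vector groups.

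All 6 tested members of 14 listed neutrophil genes were higher in AAV-miR-34b/c than in vehicle livers, with a median log2 fold change of 4.14 (3 of 9 with the close pairs summed), whereas 8 members did not pass the filter on low counts. In AAV-GFP livers 3 members could be tested and none differed from vehicle (no member had an adjusted p under 0.05 by edgeR), with a median of -0.45. The summed level of the 14 genes lay between 40.5 and 218 CPM in vehicle, between 32.4 and 263 CPM in AAV-GFP and between 197 and 3428 CPM in AAV-miR-34b/c. Since the filter admits a gene through the group in which it is high, these counts and medians describe the tested members only. Without AAV-miR-34b/c 1 and 2, 3 members could be tested, with a median of 2.38.

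S100a8, a calcium-binding alarmin of neutrophils, stood at 34.3, 7.94, 6.67, 34.5 and 7.70 CPM in vehicle and at 21.1 to 858 CPM, median 181, after AAV-miR-34b/c. AAV-miR-34b/c 5 and 7 were within the vehicle range and the other 5 above it, with a log2 fold change of 4.06 ± 0.92 (edgeR adjusted p = 0.00637; 0.0618 with the close pairs summed). Ngp, a neutrophil granule protein, had 6 counts in all vehicle libraries and 455 in all AAV-miR-34b/c libraries, a ratio of 50.8 after correction for depth (95% interval of the counts 23.1 to 139, counting error only). Retnlg, a resistin-like protein of neutrophils, stood at 0 to 2.43 CPM in vehicle and at 1.79 to 58.7 CPM, median 23.8, and 5 of 7 libraries lay above all vehicle libraries. Camp, the antimicrobial cathelicidin, stood at 0 to 2.92 CPM in vehicle and at 0 to 69.8 CPM, median 5.95. Neutrophil and acute phase levels were both highest in AAV-miR-34b/c 1 and 2 and lowest in 5 and 7. Relative to the vehicle mean, the mean log2 level of tested neutrophil genes was 5.55 and 5.57 in AAV-miR-34b/c 1 and 2, 3.62 and 3.64 in 3 and 4, 2.01 in 6, and 1.37 and 1.27 in 5 and 7. The mean of the acute phase list was 2.07 and 2.0 in 1 and 2, 1.49 in both 3 and 4, 1.16 in 6, and 0.29 and 0.33 in 5 and 7, and vehicle 1 and 4 stood at 0.66 and 0.63. The part of the neutrophil genes in the acute phase result was not tested.

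**Figure D4:**
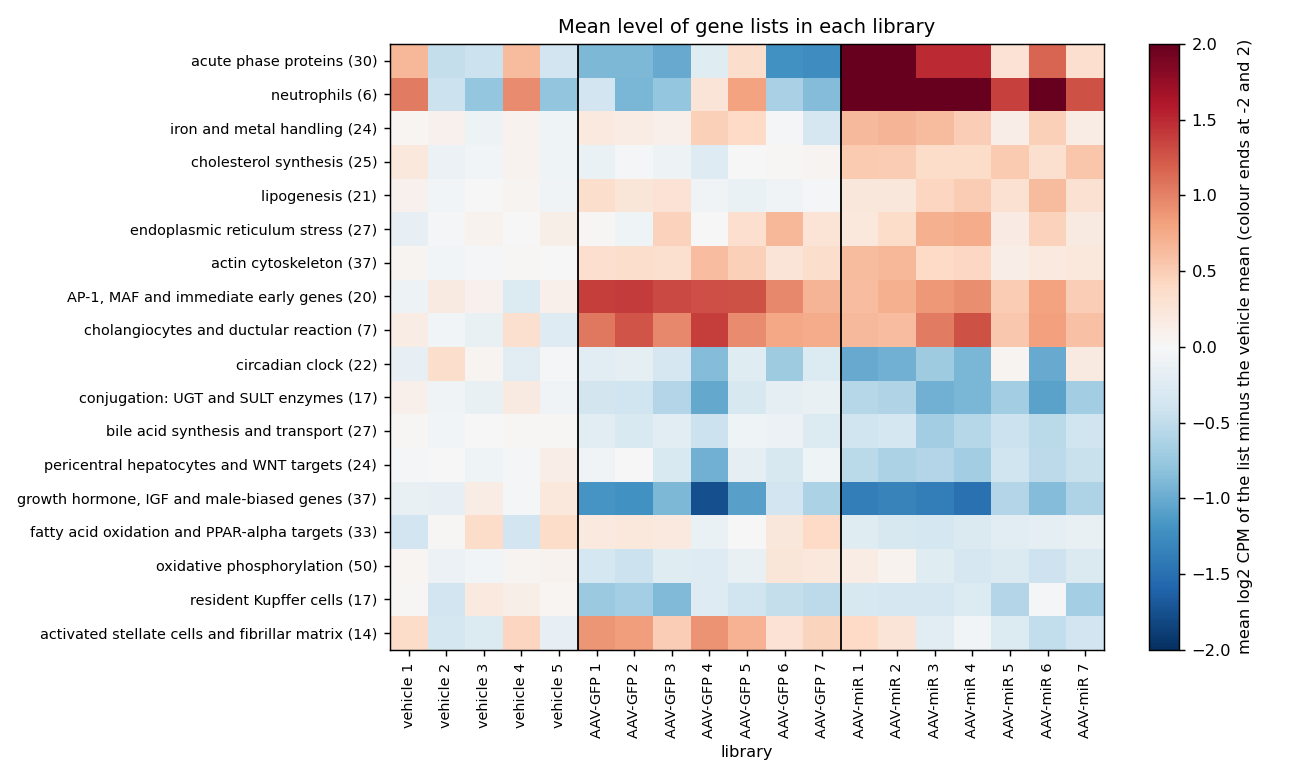
Mean log2 CPM of gene lists in each library minus the mean of the 5 vehicle libraries, by library (columns) and list (rows), in colour from lower to higher (colours end at -2 and 2). AAV-miR-34b/c 1 to 4 have the highest acute phase and neutrophil means, and the acute phase means of 5 and 7 lie within the vehicle range.

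Signals that accompany an acute phase were higher in part. Of 17 tested chemokine and cytokine genes, 5 were higher and none lower, with a median of 0.43 (1 and 0 with the close pairs summed). Il1rn, the soluble IL-1 receptor antagonist, stood at 2.08, 3.97, 2.67, 1.95 and 1.62 CPM in vehicle and at 3.23 to 20.1 CPM, median 12.9. All but 1 library lay above the vehicle range, with a log2 fold change of 2.34 ± 0.43 (edgeR adjusted p = 0.00182; 0.0336 with the close pairs summed). Cxcl1, a neutrophil chemoattractant, rose by 1.55 ± 0.46, Cxcl14, a chemokine of hepatocytes and epithelia, by 1.65 ± 0.51, and Il6st, the gp130 subunit of the IL-6 receptor, by 0.76 ± 0.22. None of these 3 passed with the close pairs summed (adjusted p = 0.134, 0.123 and 0.155). Of 26 complement genes, 6 were higher and 2 lower, with a median of 0.06 (2 and 0 with the close pairs summed). C3, the central complement component, stood at 2598, 4131, 2649, 2649 and 2168 CPM in vehicle and at 4717 to 8768 CPM, median 6866, without overlap, and its log2 fold change was 1.25 ± 0.20. The complement regulators Clu and Vtn rose by 0.94 ± 0.16 and 0.87 ± 0.14, whereas of the chains of C8, a membrane attack component, C8g and C8b fell, with log2 fold changes of -0.68 and -0.60, and C8a rose by 0.70 ± 0.19. Of 24 interferon-stimulated genes only Ifit3b was higher, and Ifit3, an antiviral RNA-binding protein, and Bst2, the virus-tethering protein tetherin, were lower, by -0.77 ± 0.26 and -0.77 ± 0.16. None of the interferon genes passed edgeR with the close pairs summed.

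Male-biased genes that follow the pulsatile growth hormone pattern of male liver were lower in part. Of 37 tested members of the growth hormone and IGF list, 20 were lower and 3 higher, with a median of -0.79. In AAV-GFP livers 14 were lower and 2 higher, with a median of -0.12. After summing the close pairs, 11 were lower and none higher.

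The major urinary proteins, pheromone carriers that male hepatocytes secrete in bulk, were among the members that fell. Mup16 (chr4:61515592-61519531, minus strand) stood at 1906, 1863, 5187, 2061 and 4539 CPM in vehicle and at 108 to 378 CPM, median 215, after AAV-miR-34b/c. The groups did not overlap, and the log2 fold change of -3.67 ± 0.36 (edgeR adjusted p = 2.2e-05) stood beside -4.48 in AAV-GFP livers. Mup17 stood at 3223, 2170, 8336, 3464 and 9783 CPM in vehicle and at 33.3 to 745 CPM, median 140, with a log2 fold change of -4.27 ± 0.70. Mup9, Mup12 and Mup18 fell, with log2 fold changes of -3.72, -3.34 and -2.99. Mup20, also called darcin, a male-specific pheromone, stood at 3300, 2520, 2707, 3529 and 3328 CPM in vehicle and at 1260 to 2424 CPM, median 1778, after AAV-miR-34b/c. It lay at 2714 to 10826 CPM after AAV-GFP, and it differed between the vector groups (log2 fold change -1.49, edgeR adjusted p = 0.00832). Mup genes are near-identical and share reads, so the split between copies is uncertain.

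Other male-biased genes fell with them. Slco1a1, an uptake transporter of steroid conjugates, stood at 608, 494, 641, 650 and 676 CPM in vehicle and at 39.8 to 303 CPM, median 61.5, below every vehicle library in 7 of 7. Its log2 fold change was -2.17 ± 0.45 (edgeR adjusted p = 0.0039). Cyp7b1, the oxysterol 7-alpha-hydroxylase, stood at 432, 384, 472, 465 and 502 CPM in vehicle and at 102 to 249 CPM, median 158, again without overlap, with a log2 fold change of -1.40 ± 0.21. Of 25 female-biased genes listed, 6 could be tested, none was higher and 2 were lower, among them Cyp2c40, an arachidonate-metabolising enzyme, at -2.40 ± 0.58. The female-biased count was 1 higher and 1 lower of 8 with the close pairs summed, and 1 higher and 2 lower of 7 without vehicle 1 and 4. Igfbp4, a binding protein that sequesters IGFs, was the member of the growth hormone list described as higher here, at 1251 to 1782 CPM after AAV-miR-34b/c against 910 to 1276 CPM in vehicle.

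Conjugation enzymes, which attach glucuronic acid or sulfate to drugs, steroids and bilirubin, were the list with the largest share of lower genes. Of 17 tested UGT and SULT genes, 12 were lower and none higher, with a median of -0.96. In AAV-GFP livers 2 of 18 were lower, with a median of -0.24. With the close pairs summed 4 of 19 were lower, and without vehicle 1 and 4 the count was 5 lower and 1 higher of 17. Sult2a8, a bile acid sulfotransferase of mouse liver, stood at 413, 301, 313, 443 and 413 CPM in vehicle and at 57.8 to 160 CPM, median 112. No library overlapped, and its log2 fold change was -1.81 ± 0.24 (edgeR adjusted p = 0.000154; 0.0198 with the close pairs summed). Ugt2b36, a glucuronosyltransferase, stood at 863, 839, 782, 964 and 746 CPM in vehicle and at 187 to 580 CPM, median 328, with a log2 fold change of -1.18 ± 0.22. The related Ugt2b38 fell by 2.23 on the log2 scale and lay below all vehicle libraries in 7 of 7, and it also differed from AAV-GFP (log2 fold change -2.06, edgeR adjusted p = 0.0229). Ugt2b genes share long stretches of sequence, which makes values of single copies uncertain.

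Cytochrome P450 enzymes, the oxidases of phase I drug metabolism, moved both ways. Of 38 tested, 8 were lower and 3 higher, with a median of -0.17. A single P450 gene, lower, passed with the close pairs summed, and without vehicle 1 and 4 the count was 3 lower and none higher. In AAV-GFP livers 2 were lower and 7 higher. Cyp2c37, an arachidonate and drug oxidase, stood at 46.1, 97.2, 77.0, 46.2 and 88.0 CPM in vehicle and at 6.83 to 24.0 CPM, median 11.5, without overlap, with a log2 fold change of -2.38 ± 0.29 (edgeR adjusted p = 0.000119). Cyp2a5, the coumarin hydroxylase, was lower than vehicle after AAV-miR-34b/c, at -0.92 ± 0.30, and higher than vehicle after AAV-GFP, at 1.05. The difference between the vector groups was itself past the threshold (log2 fold change -1.99, edgeR adjusted p = 0.00305). Cyp2c38, Cyp2a12 and Cyp3a13 were higher than vehicle, by 1.16 ± 0.29, 0.69 ± 0.21 and 0.68 ± 0.20. Glutathione S-transferases conjugate electrophiles, and some of those in the list of NRF2 targets were higher. Gstm1, Gstm2 and Gstm3 rose, with log2 fold changes of 0.92 ± 0.28, 1.02 ± 0.18 and 1.23 ± 0.19, whereas Gsta2, Gsta4, Gstm4 and Gstp1 did not pass (0.08, -0.37, 0.05 and 0.47). Gsta3, outside the list and picked with its values in view, was lower at -0.65 ± 0.22. Gstm3 stood at 12.1, 17.5, 17.8, 15.6 and 18.2 CPM in vehicle and at 27.5 to 49.8 CPM, median 39.9, after AAV-miR-34b/c. AAV-GFP livers reached higher levels of Gstm3, at 41.4 to 128 CPM. The log2 fold change of Gstm3 after AAV-miR-34b/c was 1.23 ± 0.19 against vehicle and -1.12 against AAV-GFP (edgeR adjusted p = 0.0108 for the latter). Of 28 NRF2 target genes, 4 were higher and 1 lower, with a median of 0.21 (2 and 0 with the close pairs summed), beside 13 higher and none lower of 30 in AAV-GFP livers, with a median of 0.59. The share of NRF2 targets that differed after AAV-miR-34b/c, 17.9%, was below the 21.9% over all genes tested.

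Genes of bile acid synthesis and transport were lower in part. Of 27 tested, 11 were lower and 3 higher, with a median of -0.39, and 6 were lower and none higher with the close pairs summed. In AAV-GFP livers 6 were lower and 3 higher, with a median of 0.03. Cyp7a1, the rate-limiting enzyme of bile acid synthesis, stood at 404, 276, 392, 409 and 365 CPM in vehicle and at 36.8 to 196 CPM, median 110, after AAV-miR-34b/c. No library overlapped, and its log2 fold change of -1.85 ± 0.36 (edgeR adjusted p = 0.00266) stood beside -2.61 in AAV-GFP livers. Slco1b2, an uptake carrier of hepatocytes for bile acids and statins, stood at 3521, 3668, 2864, 3681 and 3138 CPM in vehicle and at 898 to 2150 CPM, median 1431, with a log2 fold change of -1.18 ± 0.20. Slco1a4, a second uptake carrier, fell by 2.23 on the log2 scale, and Nr1h4, the bile acid receptor FXR, fell by 0.80. All 3 genes lay below every vehicle library in 7 of 7.

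The members that were higher included Nr0b2, the repressor SHP, which is induced by FXR and represses Cyp7a1. It stood at 1.73, 11.6, 10.7, 2.43 and 13.8 CPM in vehicle and at 2.87 to 44.7 CPM, median 33.4. AAV-miR-34b/c 5 and 7 did not exceed the vehicle range, and its log2 fold change of 1.77 ± 0.59 (edgeR adjusted p = 0.0395) did not pass with the close pairs summed (adjusted p = 0.158). Slc10a2, the apical sodium-dependent bile acid carrier, stood at 50.3, 21.8, 23.1, 49.4 and 20.7 CPM in vehicle and at 53.9 to 114 CPM, median 73.9, above all vehicle libraries in 7 of 7. Slco2b1, an organic anion carrier, rose by 0.67 ± 0.15. Abcb4, the phospholipid floppase of the canaliculus, stood at 426, 410, 595, 364 and 592 CPM in vehicle and at 289 to 400 CPM, median 347, with a log2 fold change of -0.44 ± 0.15. Its adjusted p of 0.0485 by edgeR became 0.311 with the close pairs summed.

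Pericentral genes, which WNT signals keep on around the central vein where TAA is activated, had 10 lower and no higher members of 24 tested, with a median of -0.51. In AAV-GFP livers 6 were lower and 1 higher of 25, with a median of -0.16, and with the close pairs summed 5 of 26 were lower. Rnf43, a feedback inhibitor of WNT receptors, stood at 12.5, 14.9, 10.2, 15.3 and 15 CPM in vehicle and at 0.798 to 6.45 CPM, median 3.25. The groups did not overlap, and its log2 fold change was -1.93 ± 0.33 (edgeR adjusted p = 0.00114). Oat, ornithine aminotransferase, a marker of the innermost hepatocytes, stood at 418, 346, 269, 356 and 340 CPM in vehicle and at 114 to 190 CPM, median 172, also without overlap. The log2 fold change of Oat was -1.12 ± 0.15 after AAV-miR-34b/c and -1.13 after AAV-GFP. Of 20 periportal genes, 7 were higher and 3 lower, with a median of 0.35. Only 1 was higher and none lower with the close pairs summed, and 2 were higher and none lower without vehicle 1 and 4. Among the members were Hsd17b13, a lipid droplet enzyme, at 0.57 ± 0.14, and Hsd17b6, a retinol and steroid dehydrogenase, at -1.19 ± 0.32.

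Of 45 tested amino acid and urea cycle enzymes, 7 were lower and 6 higher, with a median of -0.11 (2 lower and none higher with the close pairs summed). Without AAV-miR-34b/c 1 and 2, 18 were lower and 6 higher, with a median of -0.26, where 21.5% of all genes were lower. Cps1, the entry enzyme of the urea cycle, stood at 1078, 1267, 676, 1001 and 919 CPM in vehicle and at 384 to 765 CPM, median 492, with 5 of 7 libraries below the vehicle range. Its log2 fold change was -0.90 ± 0.20 (edgeR adjusted p = 0.0051; 0.0559 with the close pairs summed). Gpt2, the mitochondrial alanine aminotransferase, and Slc7a2, the cationic amino acid carrier, fell, at log2 fold changes of -0.98 and -0.93. Cbs, which commits homocysteine to cysteine synthesis, stood at 193, 230, 366, 222 and 286 CPM in vehicle and at 334 to 811 CPM, median 588, and its log2 fold change was 1.10 ± 0.23. Fah, the last enzyme of tyrosine breakdown, rose by 0.71 ± 0.19, and Mat1a, which makes S-adenosylmethionine, by 0.56 ± 0.16. Mat1a lay at 3349 to 4972 CPM after AAV-miR-34b/c, above all vehicle libraries (2631 to 3291 CPM), and at 1561 to 2823 CPM after AAV-GFP.

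Cholesterol synthesis genes were higher in part. Of 25 tested, 10 were higher and none lower, with a median of 0.44, whereas in AAV-GFP livers none was higher and 1 lower against vehicle, with a median of -0.10. Between the vector groups 11 were higher and none lower after AAV-miR-34b/c. After summing the close pairs, 6 were higher and none lower. Mvd, mevalonate diphosphate decarboxylase, stood at 20.5, 15.9, 29.8, 17.3 and 15.4 CPM in vehicle and at 33.6 to 78.3 CPM, median 58.4. No library overlapped, and its log2 fold change was 1.56 ± 0.24 (edgeR adjusted p = 0.000669). Hmgcs1, the cytosolic HMG-CoA synthase, stood at 303, 153, 165, 302 and 187 CPM in vehicle and at 358 to 537 CPM, median 486, without overlap. The log2 fold changes of Hmgcs1, of squalene synthase Fdft1 and of lanosterol synthase Lss were 1.11 ± 0.19, 1.10 ± 0.18 and 1.25 ± 0.24. The list mean was above the vehicle mean in every AAV-miR-34b/c library, by 0.32 to 0.56 on the log2 scale.

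Fatty acid synthesis genes were also higher in part. Of 21 lipogenesis genes 5 were higher and none lower, with a median of 0.33 (2 and 0 with the close pairs summed). In AAV-GFP livers 3 of 22 were higher and 1 was lower against vehicle, with a median of 0.24. Fasn, fatty acid synthase, stood at 114, 84.0, 117, 108 and 95.3 CPM in vehicle and at 155 to 374 CPM, median 262, without overlap, with a log2 fold change of 1.38 ± 0.23 (edgeR adjusted p = 0.00104; 0.0284 with the close pairs summed). Acaca, acetyl-CoA carboxylase, rose by 1.58 ± 0.29, the acyltransferase Agpat2 by 0.91 ± 0.17 and the desaturase Fads1 by 0.74 ± 0.15. Fasn lay at 130 to 224 CPM after AAV-GFP, also above every vehicle library. On the side of fatty acid oxidation, 8 of 33 tested genes were lower and 1 higher, with a median of -0.22. In AAV-GFP livers 1 of 33 was lower and 3 were higher, with a median of 0.07. Without vehicle 1 and 4, 5 were lower and none higher after AAV-miR-34b/c, with a median of -0.44. With single libraries left out, the number of lower oxidation genes ran from 4 to 9. Hadhb, a subunit of the mitochondrial trifunctional protein, stood at 43.0, 58.9, 51.2, 51.3 and 54.7 CPM in vehicle and at 21.3 to 36.7 CPM, median 28.5, below every vehicle library, with a log2 fold change of -0.85 ± 0.17. Fabp1, the liver fatty acid-binding protein, stood at 3587, 3433, 3835, 3556 and 4637 CPM in vehicle and at 1519 to 3187 CPM, median 1929, again without overlap, with a log2 fold change of -0.83 ± 0.20. Acaa1b, a peroxisomal thiolase, was the higher member, at 1.03 ± 0.26. Fitm1, given above and also a member of this list, was the one oxidation gene that passed with the close pairs summed.

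Respiratory chain genes moved both ways. Of 50 oxidative phosphorylation genes, 12 were lower and 3 higher, with a median of -0.19, and none passed with the close pairs summed by edgeR. Without AAV-miR-34b/c 1 and 2, 26 were lower and 2 higher, where 21.5% of all genes were lower. Atp5b, the catalytic subunit of ATP synthase, stood at 799, 862, 654, 832 and 712 CPM in vehicle and at 355 to 607 CPM, median 410, below all vehicle libraries in 7 of 7, with a log2 fold change of -0.78 ± 0.17 (edgeR adjusted p = 0.0045). The complex I subunits Ndufs1, Ndufb8 and Ndufv1 fell, at log2 fold changes of -0.74, -0.75 and -0.63. The mitochondrially encoded mt-Nd4 stood at 11140, 19764, 12278, 11726 and 11911 CPM in vehicle and at 14986 to 54584 CPM, median 38241, with AAV-miR-34b/c 1 and 2 inside the vehicle range and the other 5 above it. Its log2 fold change was 1.39 ± 0.30, and that of mt-Nd2 was 1.12 ± 0.25. The third higher member, the nuclear ATP synthase gene Atp5g1, stood at 153, 133, 242, 174 and 217 CPM in vehicle and at 211 to 310 CPM, median 252, with a log2 fold change of 0.47 ± 0.16 (edgeR adjusted p = 0.0484). The share of counts taken by mitochondrial genes, given above, moved with these values, and its part in the result was not tested.

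Glucose genes followed no single direction, with 4 higher and 3 lower of 22 (2 and 0 of 24 with the close pairs summed, and 4 and 5 of 22 without AAV-miR-34b/c 1 and 2). Ppp1r3b, which targets the phosphatase that activates glycogen synthase, rose by 1.78 ± 0.35, and Irs2, the hepatic insulin receptor substrate, by 2.16 ± 0.49. Igfbp1, an IGF-binding protein that insulin represses and stress induces, stood at 101, 27.1, 353, 126 and 360 CPM in vehicle and at 81.2 to 1295 CPM, median 945. AAV-miR-34b/c 5 and 7 lay inside the vehicle range, and its adjusted p of 0.0419 by edgeR became 0.136 with the close pairs summed. Slc2a2, the glucose carrier GLUT2, had a log2 fold change of -0.90, Ugp2, which makes UDP-glucose, one of -1.17, and Slc37a4, the glucose-6-phosphate carrier, one of -0.65.

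Genes of the endoplasmic reticulum (ER) stress response, chaperones and enzymes that fold secreted proteins, were higher in part. Of 27 tested, 11 were higher and 1 lower, with a median of 0.46, beside 5 higher and 1 lower of 28 in AAV-GFP livers, with a median of 0.33. After summing the close pairs, 2 were higher. Hspa5, the chaperone BiP, stood at 892, 1183, 1123, 784 and 1061 CPM in vehicle and at 1046 to 3602 CPM, median 2122. AAV-miR-34b/c 5 and 7 were within the vehicle range and the other 5 above it, with a log2 fold change of 1.2 ± 0.29 (edgeR adjusted p = 0.00806; 0.0737 with the close pairs summed). Hyou1, a chaperone of the same compartment, stood at 4.85, 16.2, 10.2, 16.8 and 17.4 CPM in vehicle and at 25.4 to 45.8 CPM, median 34.4, without overlap, and its log2 fold change was 1.39 ± 0.27. Creld2, an ER-resident isomerase, rose by 1.70 ± 0.45, and Chac1, a glutathione-degrading enzyme induced by ATF4, by 1.56 ± 0.48. The chaperones Calr and Hsp90b1 rose by 0.78 ± 0.15 and 0.74 ± 0.15 and the co-chaperone Dnajc3 by 0.42 ± 0.13, these 3 genes being chosen after their values were seen. Herpud1, a component of ER-associated degradation, was the lower member, at -0.75 ± 0.21.

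The ER stress element, CCAAT and CCACG separated by 9 bases of any kind and bound by ATF6 with NF-Y, was in 39 of 32851 promoters (0.119%), in 8 of 25 promoters of the list (32%) and in 5 of 9 promoters of members that differed from vehicle (55.6%). The element belongs to the textbook definition of this gene family, and a match is a description of the sequence only. Of the 4 motifs searched, the sterol regulatory element, ATCAC followed directly by CCCAC, was in none of 20 promoters of the cholesterol list and in 0.0913% of all promoters. The E-box CACGTG was in 7 of 25 promoters of the clock list (28.0%), in 1 of 12 promoters of clock genes that differed from vehicle (8.33%) and in 7.15% of all promoters. The windows with the ER stress element are shown for the 5 members that differed from vehicle, and the element was also in the promoters of Canx, Derl3 and Pdia6, which did not pass the test. They lie at chr2:34772005-34772063 (Hspa5, plus strand), chr10:86705513-86705571 (Hsp90b1, minus), chr8:84847055-84847113 (Calr, minus), chr14:118937807-118937865 (Dnajc3, plus) and chr15:88819500-88819558 (Creld2, plus), with the element in capitals, in reverse complement for Hsp90b1, Calr and Creld2.
Hspa5: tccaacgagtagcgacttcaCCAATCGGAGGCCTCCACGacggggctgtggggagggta
Hsp90b1: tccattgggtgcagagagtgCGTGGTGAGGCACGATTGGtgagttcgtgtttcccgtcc
Calr: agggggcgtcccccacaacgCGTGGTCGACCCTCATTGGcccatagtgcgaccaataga
Dnajc3: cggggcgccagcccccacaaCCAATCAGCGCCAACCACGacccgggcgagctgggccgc
Creld2: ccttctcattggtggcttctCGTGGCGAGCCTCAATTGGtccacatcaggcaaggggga

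Iron and metal genes were higher in 10 of 24 and lower in 2, with a median of 0.47. The count was 3 higher and none lower with the close pairs summed, and the median was 0.15 without AAV-miR-34b/c 1 and 2. Mt1, the metallothionein that buffers zinc and copper, stood at 2333, 943, 2203, 2188 and 2076 CPM in vehicle and at 4719 to 9299 CPM, median 8432, after AAV-miR-34b/c. No library overlapped, with a log2 fold change of 1.97 ± 0.25 (edgeR adjusted p = 0.000145), and AAV-GFP livers lay at 106 to 1818 CPM. Mt2 stood at 753, 612, 289, 760 and 311 CPM in vehicle and at 1444 to 7596 CPM, median 3672, with a log2 fold change of 2.99 ± 0.44. Both metallothioneins also differed between the vector groups, by log2 fold changes of 3.06 and 3.14. Cp, the copper ferroxidase ceruloplasmin, stood at 1416, 944, 1155, 1457 and 1149 CPM in vehicle and at 1874 to 3579 CPM, median 3293, and Trf, the plasma iron carrier transferrin, rose by 0.95 ± 0.21. Cp was chosen after its values were seen. Hamp2, a hepcidin paralogue, stood at 12.5, 27.5, 21.4, 23.6 and 19.1 CPM in vehicle and at 8.60 to 118 CPM, with 5 libraries above and 1 below the vehicle range. Smad7, the inhibitor of BMP and TGF-beta signalling, fell by 0.91 on the log2 scale.

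Actin cytoskeleton genes were higher in both vector groups, in 12 of 37 (1 lower, median 0.47) after AAV-miR-34b/c and in 12 of 37 (none lower, median 0.41) after AAV-GFP. Against vehicle, 6 of 39 were higher after AAV-miR-34b/c with the close pairs summed, and without AAV-miR-34b/c 1 and 2 the count was 14 higher and 5 lower of 35, with a median of 0.18. Lasp1, a focal adhesion scaffold, stood at 49.2, 38.0, 36.0, 40.8 and 42.6 CPM in vehicle and at 77.0 to 160 CPM, median 122, without overlap, with a log2 fold change of 1.48 ± 0.20 (edgeR adjusted p = 0.000195; 0.018 with the close pairs summed). Rac2, a small GTPase of blood cells, rose by 1.66 ± 0.35. Of 18 cholangiocyte and ductular genes 7 could be tested, and 3 were higher and none lower, with a median of 0.65 (2 and 0 with the close pairs summed), beside 5 higher in AAV-GFP livers with a median of 0.99. The keratins Krt8 and Krt18, the intermediate filaments of hepatocytes and bile ducts, rose by 1.07 ± 0.15 and 1.49 ± 0.22. Sox9, the transcription factor of bile ducts and periportal progenitors, stood at 17.7, 27.5, 12.0, 19.0 and 15.4 CPM in vehicle and at 29.5 to 84.0 CPM, median 43.0, without overlap, with a log2 fold change of 1.40 ± 0.27.

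Fibrillar matrix and activated stellate cell genes belong to the tissue response that TAA is used to provoke, and many had too few counts to test. Of 30 genes listed for activated stellate cells, 14 had enough counts to be tested, none was higher and 1, Vcl, was lower at an adjusted p under 0.05 by edgeR, with a median of -0.08. The share that differed was 7.14%, beside 21.9% over all genes. In so few genes with low counts, this share does not show a return to the vehicle level. In AAV-GFP livers 9 of 21 were higher and none lower, with a median of 0.75. Relative to AAV-GFP 4 of 17 were lower and none higher after AAV-miR-34b/c, with a median of -0.67. The filter admits a gene through the group in which it is high, so these counts and medians cover different members. With the close pairs summed 25 could be tested and none differed from vehicle. Without AAV-miR-34b/c 1 and 2, 4 of 12 were lower, where 21.5% of all genes were lower. Without vehicle 1 and 4, none of 17 differed and the median was 0.33, so that the sign of the median turned on the vehicle libraries used.

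Col1a1, the main fibrillar collagen chain, stood at 5.2, 4.96, 5.34, 6.08 and 2.84 CPM in vehicle and at 5.48 to 8.78 CPM, median 6.65, after AAV-miR-34b/c. The AAV-miR-34b/c libraries lay above the vehicle range in 6 of 7, with a log2 fold change of 0.51 ± 0.26 that did not pass the edgeR test (adjusted p = 0.167; two-sided exact permutation p = 0.00379, with libraries of close pairs counted singly). In AAV-GFP livers Col1a1 stood at 14.0 to 55.4 CPM, with a log2 fold change of 2.42 against vehicle (edgeR adjusted p = 0.000298) and of -1.92 for AAV-miR-34b/c against AAV-GFP (edgeR adjusted p = 0.000898). Timp2, an inhibitor of matrix metalloproteinases, had a log2 fold change of 0.38 ± 0.22 (edgeR adjusted p = 0.221) against vehicle. Ccn2, the matricellular growth factor CTGF, stood at 28.1, 3.64, 11.1, 30.6 and 15 CPM in vehicle and at 4.55 to 41.8 CPM, median 6.23, and Pdgfra, a receptor of stellate cells, at 0.992 to 5.2 and 1.61 to 6.51 CPM. Neither differed by the edgeR test (adjusted p = 0.797 and 0.800). Acta2, the smooth muscle actin of activated stellate cells, stood at 8.32, 0.331, 4.89, 0 and 0.405 CPM in vehicle and at 1.21 to 3.99 CPM, and it did not pass the filter on low counts, nor did Timp1, Tgfb1, Pdgfrb, Ccl2, Il6 or Des. Vcl, the adhesion protein vinculin, stood at 18.4, 18.2, 8.01, 18.2 and 10.9 CPM in vehicle and at 3.58 to 9.25 CPM, median 8.05, with 3 of 7 libraries below the vehicle range and a log2 fold change of -0.95 ± 0.27 (edgeR adjusted p = 0.0198; 0.0862 with the close pairs summed).

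Of 17 quiescent stellate cell genes 5 were lower and 2 higher, with a median of -0.28. Without vehicle 1 and 4, 2 were lower and none higher, with a median of -0.06. With single libraries left out, the number of lower members ran from 2 to 5. Dpt, a dermatan sulfate-binding matrix protein, had a log2 fold change of -1.18, Colec10, a collectin, one of -0.76, and Ecm1, an extracellular inhibitor of TGF-beta activation, one of -0.55. Ecm1 stood at 49.6, 55.6, 73.4, 50.8 and 66.5 CPM in vehicle and at 35.1 to 47.6 CPM, median 39.4, below every vehicle library. Bgn, the proteoglycan biglycan, and Cygb, the globin of stellate cells, rose by 0.83 ± 0.26 and 0.80 ± 0.26. No member of the list differed with the close pairs summed by edgeR.

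**Figure D5:**
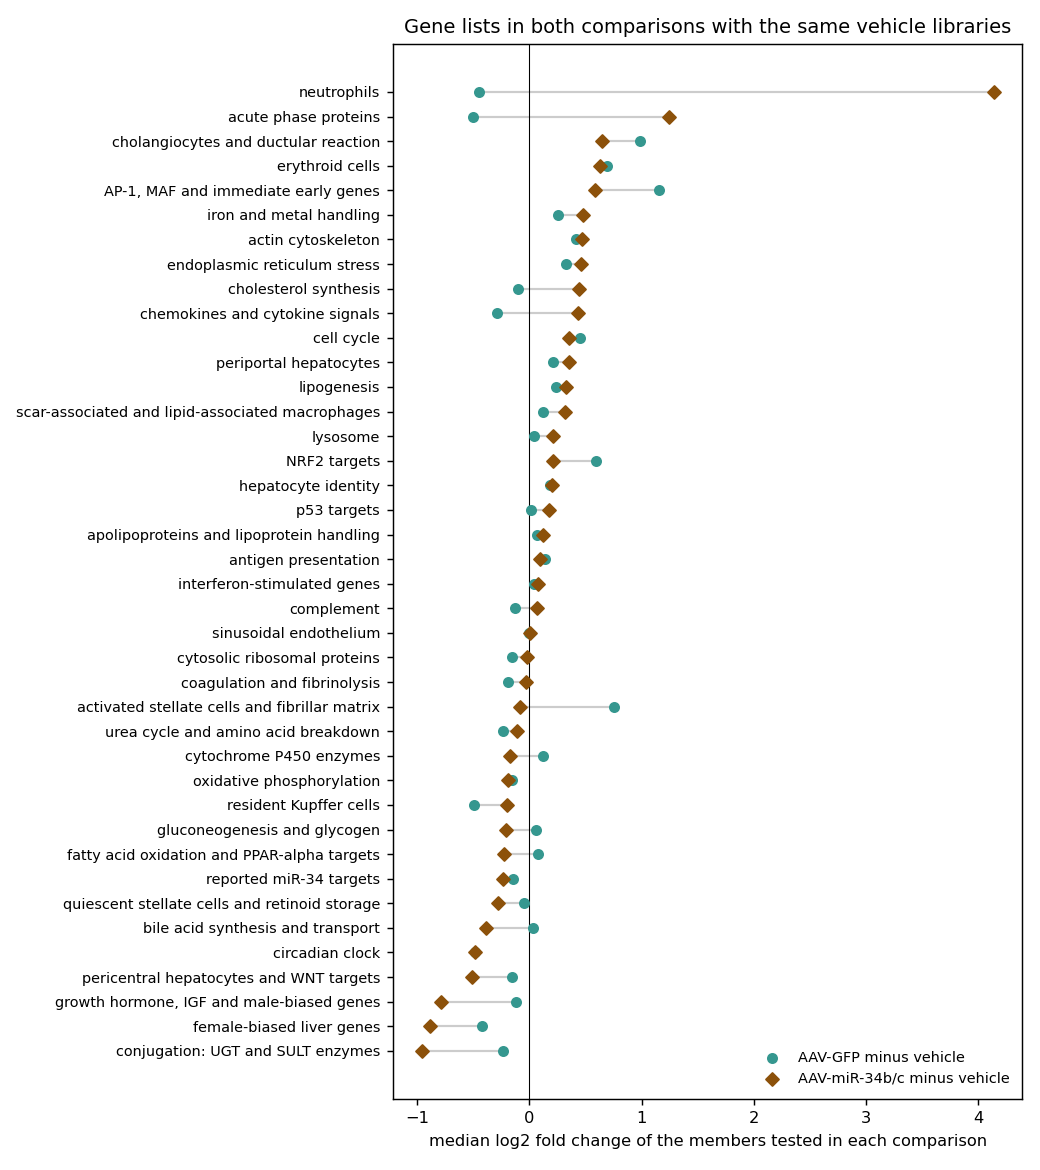
Median log2 fold change against vehicle of the tested members of each list with at least 5, for AAV-miR-34b/c and for AAV-GFP (x axis), by list (y axis). The groups share the vehicle libraries. With all libraries, the acute phase median lies above 0 with AAV-miR-34b/c only. The activated stellate cell median lies above 0 with AAV-GFP only, where 9 of 21 genes were higher. The stellate cell medians rest on different members, 14 for AAV-miR-34b/c and 21 for AAV-GFP. Without vehicle 1 and 4, that of AAV-miR-34b/c was 0.33.

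Of 17 resident Kupffer cell genes 4 were lower and none higher, with a median of -0.20, beside 6 lower in AAV-GFP livers with a median of -0.49. No Kupffer cell gene passed edgeR with the close pairs summed or without vehicle 1 and 4. Adgre1, the macrophage receptor F4/80, stood at 35.0, 23.2, 34.7, 35.7 and 26.8 CPM in vehicle and at 9.10 to 22.7 CPM, median 10.5, without overlap, with a log2 fold change of -1.22 ± 0.25 (edgeR adjusted p = 0.0039; 0.0611 with the close pairs summed). Timd4, the phosphatidylserine receptor of embryonic Kupffer cells, had a log2 fold change of -1.69, Slc40a1, the iron exporter ferroportin, one of -0.76, and Folr2, a folate receptor, one of -0.72. Of 19 scar-associated and lipid-associated macrophage genes 3 were higher (15.8%) and none lower, with a median of 0.32 (1 and 0 with the close pairs summed). Gpnmb, a glycoprotein of lipid-laden macrophages, had 3 counts over all vehicle libraries and 202 over all AAV-miR-34b/c libraries, a ratio of 45.1 after correction for depth (95% interval of the counts 15.2 to 220, counting error only). It stood at 3.40 to 13.6 CPM after AAV-miR-34b/c and at 12.4 to 39.1 CPM after AAV-GFP, and the vector groups differed (log2 fold change -1.37, edgeR adjusted p = 0.0143). Cd63, a tetraspanin of late endosomes, and Cd36, the scavenger receptor, rose by 1.95 ± 0.52 and 0.94 ± 0.28. For both genes AAV-miR-34b/c 5, 6 and 7 lay within the vehicle range. In these libraries Cd63 stood at 49.1, 39.5 and 47.9 CPM, against 25.8 to 53.7 CPM in vehicle. Cd36 stood at 17.9, 19.9 and 16.1 CPM, against 14.3 to 21.5 CPM in vehicle. The general macrophage genes Cd68 and Aif1 had log2 fold changes of 0.36 ± 0.22 and -0.19 ± 0.23 that did not pass (edgeR adjusted p = 0.256 and 0.584).

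Of 18 sinusoidal endothelial genes, 2 were higher and 1 lower, with a median of 0.01 (1 and 1 with the close pairs summed). Lyve1 is given above. Dnase1l3, a secreted nuclease, rose by 0.55 ± 0.19, and Cdh5, the junction protein VE-cadherin, stood at 24.3, 28.1, 22.7, 33.6 and 17.4 CPM in vehicle and at 6.51 to 18.8 CPM, median 9.10. Its log2 fold change was -1.25 ± 0.26 (edgeR adjusted p = 0.00383; 0.0423 with the close pairs summed), with 6 of 7 libraries below the vehicle range. Of 20 genes of T, B, NK and plasma cells, 3 could be tested and none differed by edgeR, with 1 of 2 higher without AAV-miR-34b/c 1 and 2. Of 5 erythroid genes tested, Alas2, the haem synthesis enzyme of red cells, was higher by 0.63 ± 0.17, and no erythroid gene passed edgeR with the close pairs summed.

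Clock genes differed between libraries of the group. Of 22 tested, 6 were lower and 4 higher, with a median of -0.49, and AAV-GFP livers had the same median over 23 genes, with 8 lower and 5 higher. Summing the close pairs left 1 clock gene lower and 1 higher. Collection times are not given in the sources used here, and the part of time of day in these values was not tested. Arntl, the core activator BMAL1, stood at 0 to 1.22 CPM in vehicle and at 0.358 to 8.78 CPM, median 5.14. Per3, a repressor of the clock, stood at 17.0, 23.8, 9.79, 5.35 and 7.70 CPM in vehicle and at 0 to 9.10 CPM, median 1.2. Dbp, a clock output factor chosen after its values were seen, lay between 64.2 and 107 CPM in vehicle. It stood at 0.798 to 3.68 CPM in AAV-miR-34b/c 1, 2, 3, 4 and 6 and at 84.2 and 81.9 CPM in 5 and 7, so that it did not pass the test (edgeR adjusted p = 0.173). Gpcpd1, a glycerophosphodiesterase under clock control, was low in all 7 libraries, at 14.8 to 61.6 CPM against 119 to 202 CPM in vehicle, with a log2 fold change of -2.29 ± 0.29. Nfil3, the repressor E4BP4, stood at 12.1, 4.30, 9.34, 6.32 and 9.73 CPM in vehicle and at 12.2 to 76.3 CPM, median 50.2, with a log2 fold change of 2.37 ± 0.41.

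Of 17 p53 targets, 3 were higher and 2 lower, with a median of 0.18 (1 and 0 with the close pairs summed). Cdkn1a, the cell cycle inhibitor p21, stood at 1.73, 3.64, 7.56, 7.78 and 11.4 CPM in vehicle and at 5.95 to 240 CPM, median 93.9. AAV-miR-34b/c 5 and 7 lay within the vehicle range, at 11.1 and 5.95 CPM, and the other 5 at 89.0 to 240 CPM, with a log2 fold change of 4.09 ± 0.76 (edgeR adjusted p = 0.00185; 0.0284 with the close pairs summed). In AAV-GFP livers its log2 fold change was 3.40. Btg2, an antiproliferative factor, and Bbc3, the death effector PUMA, rose by 1.78 ± 0.37 and 1.48 ± 0.41, whereas Ccng1, cyclin G1, and Perp, a desmosome protein, fell, at log2 fold changes of -0.67 and -0.56. Immediate early and AP-1 genes were higher in 8 of 20 and lower in none, with a median of 0.58 (5 of 25 with the close pairs summed), beside 15 of 25 higher in AAV-GFP livers with a median of 1.15. Egr1, a growth-induced transcription factor, stood at 10.4, 16.9, 8.01, 2.92 and 4.87 CPM in vehicle and at 15 to 142 CPM, median 48.3, and its log2 fold change was 2.77 ± 0.53. The AP-1 subunits Jund and Fosl2 rose by 1.86 ± 0.32 and 1.67 ± 0.30 and lay above all vehicle libraries in 7 of 7.

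Of 25 cell cycle genes 6 were higher and 4 lower, with a median of 0.36 (2 and 1 of 31 with the close pairs summed, and 5 and 7 of 21 without AAV-miR-34b/c 1 and 2). Top2a, the topoisomerase of dividing cells, stood at 3.12, 1.32, 1.33, 2.43 and 5.68 CPM in vehicle and at 6.30 to 13.9 CPM, median 11.6, without overlap, with a log2 fold change of 1.92 ± 0.37, and that of Birc5, the mitotic protein survivin, was 2.24 ± 0.52. Pcna, the clamp of DNA polymerase, fell by 1.02 on the log2 scale and lay below all vehicle libraries in 7 of 7, the histone variant gene H2afz fell by 0.84 and Cdk4, a kinase of the G1 phase, fell by 0.70.

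Of 33 tested genes reported as miR-34 targets, 6 were lower and 2 higher, with a median of -0.24, beside 5 lower and 4 higher of 38 in AAV-GFP livers with a median of -0.14. Between the vector groups 2 of 34 were lower and 1 was higher, with a median of -0.18. The share of lower members, 6 of 33, was read against 9.75% over all genes, and with the close pairs summed 2 of 40 were lower and 1 higher. Without vehicle 1 and 4, 1 of 35 was lower and 1 higher, and without AAV-miR-34b/c 1 and 2, 10 of 32 were lower and 5 higher, with a median of -0.29. In those settings 2.25% and 21.5% of all genes were lower. With single libraries left out, the number of lower targets ran from 2 to 8.

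Ccne2, cyclin E2, stood at 6.24, 7.94, 5.34, 9.73 and 6.49 CPM in vehicle and at 0.399 to 3.50 CPM, median 2.64, below every vehicle library in 7 of 7, with a log2 fold change of -1.57 ± 0.35 (edgeR adjusted p = 0.0061; 0.0393 with the close pairs summed), beside -1.23 in AAV-GFP livers. Nampt, the rate-limiting enzyme of NAD salvage, stood at 142, 157, 73.0, 142 and 107 CPM in vehicle and at 22.5 to 62.0 CPM, median 48.6, also without overlap. Its log2 fold change was -1.52 ± 0.27 after AAV-miR-34b/c and -1.05 after AAV-GFP. Between the vector groups it was -0.48, which did not pass (edgeR adjusted p = 0.464). Kitl, the stem cell factor, fell by 1.33 on the log2 scale and did not pass with the close pairs summed (adjusted p = 0.109). For Vcl, given above, the difference between the vector groups passed the threshold (log2 fold change -1.09, edgeR adjusted p = 0.00475). Hnf4a, also a listed target, was higher than vehicle, as was Ldha, lactate dehydrogenase A, at 0.43 ± 0.15.

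Of the 6 lower targets, Cdk4 and Tgfbr1 had log2 fold changes of -0.70 and -0.88, and no seed match was found in their longest annotated 3′ UTR. The seed match CACTGCC lies in the 3′ UTR of 4 lower targets and of both higher ones, and is shown in capitals on the strand of the transcript, in 30-base windows of GRCm38. The sites are at chr4:11203179-11203208 (Ccne2, plus strand), chr12:32851155-32851184 (Nampt, plus), chr10:100098617-100098646 (Kitl, plus), chr14:21032471-21032500 (Vcl, plus), chr2:163570308-163570337 and chr2:163572786-163572815 (Hnf4a, plus) and chr7:46855335-46855364 (Ldha, plus).
Ccne2: ttgtctaaggagttaCACTGCCattctttt
Nampt: cagagttccgaacatCACTGCCcttgtaga
Kitl: ctaacatgtttaacaCACTGCCatgtctta
Vcl: ttttctatgctttgtCACTGCCagtagatg
Hnf4a, first site: gggaggactgtcttcCACTGCCtggactcc
Hnf4a, second site: ccaaggccccaccatCACTGCCcaaggggg
Ldha: actgtctctgagacaCACTGCCaactgcag
Over all genes, CACTGCC was in the longest annotated 3′ UTR of 1561 of 9154 tested genes (17.1%), and in 24 of the 33 tested targets. Of genes with the site, 233 (14.9%) were higher and 106 (6.79%) lower than vehicle, with a median log2 fold change of 0.13. Of the 7593 genes without it, 887 (11.7%) were higher and 775 (10.2%) lower, with a median of 0.00. The same medians were 0.07 and -0.03 for AAV-GFP against vehicle, and 0.01 and -0.01 for AAV-miR-34b/c against AAV-GFP. The 3′ UTR had a median length of 2287 bases in genes with the site and 988 in genes without, and the part of UTR length in these values was not tested.

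The remaining lists had a median between -0.03 and 0.21, and with the close pairs summed they held 0 to 2 higher and 0 to 2 lower members each. The share of their tested members that differed ran from 5.26% (antigen presentation) to 34.8% (coagulation), beside 21.9% over all genes. Of 38 cytosolic ribosomal protein genes 4 were higher and 1 lower, with a median of -0.02, and without AAV-miR-34b/c 1 and 2 the count was 4 higher and 12 lower, with a median of -0.24. Of 24 apolipoprotein and lipoprotein genes 4 were higher and 2 lower, among them Angptl8, an insulin-induced inhibitor of lipoprotein lipase, at 1.76 ± 0.45, and Lipc, hepatic lipase, at -0.39 ± 0.14. Of 23 coagulation genes 4 were higher, including Plg, plasminogen, at 0.61 ± 0.13, and Proc, protein C, at 0.74 ± 0.17, and 4 were lower, including Klkb1, plasma prekallikrein, at -0.63 ± 0.17, and F11, factor XI, at -0.57 ± 0.19. Of 37 lysosomal genes 7 were higher and 2 lower. Psap, the precursor of saposins, and Grn, progranulin, rose by 1.27 ± 0.18 and 1.14 ± 0.23 and lay above all vehicle libraries in 7 of 7, whereas Ctsh, cathepsin H, and Npc1, the cholesterol exporter of lysosomes, fell, at log2 fold changes of -1.17 and -0.99. Of 19 antigen presentation genes only Tapbp, the peptide-loading factor tapasin, was higher, at 0.55 ± 0.16. Of 20 hepatocyte identity genes 3 were higher and 2 lower, with a median of 0.20. Alb, albumin, stood at 41701, 48250, 29628, 51448 and 37771 CPM in vehicle and at 20186 to 52723 CPM, median 34944, after AAV-miR-34b/c. Neither Alb nor the lipoprotein gene Apob nor the asialoglycoprotein receptor gene Asgr1 passed the edgeR test (adjusted p = 0.517, 0.681 and 0.326).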

How the data were processed

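Liver RNA was sequenced by the QuantSeq 3′ method (single-end, 100 bases, 100 ng of RNA according to the labels, whereas the study's methods name another library service and RNA amount). The values are raw counts per gene that the authors deposited in 1 table. The submitters' processing notes name STAR and mm10, and versions, how strand was handled and whether molecular identifiers were used are not given in the sources used here. Shared reads make near-identical, overlapping and antisense genes uncertain. Counts were tested with edgeR 4.0.16 in R 4.3.3 (quasi-likelihood, TMM, filterByExpr requiring 10 counts and a total of 15, only the groups compared, no covariate). CPM are TMM-scaled over all 19 libraries. P-values were adjusted over all genes tested (Benjamini-Hochberg, threshold 0.05). Errors are standard errors of the log2 fold change. Exact permutation tests were run on log2 CPM (prior count 2). The labels do not say how libraries relate to animals beyond their groups, so p-values measure the spread between these libraries. In simulated counts for 9290 genes, the fit recovered 55.8% of 95 genes changed 2-fold and 100.0% of 96 changed 4-fold. Each simulated library was drawn independently, so the simulation held no close pairs and its rates do not describe the fit with them.

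Genes named are the 12 protein-coding genes per direction that had the smallest adjusted p, up to 4 members per direction of each list and the genes named by the study. The members and lists were chosen with earlier results of these data known. Alternatives were filters, DESeq2 1.42.0 or its size factors, library size only, limma 3.58.1 voom (sample quality weights included), all groups in 1 fit, a replicate block, close pairs summed (coefficient of variation beyond counting noise under 0.2) and libraries left out. Leaving out AAV-miR-34b/c 1 and 2 or vehicle 1 and 4, and the 10 libraries of the block fitted without it, were chosen after seeing the data. Symbols and coordinates are from GENCODE for GRCm38, promoters and miRNAs from RefSeq (GRCm38.p6). Python 3.11.15, scipy 1.17.1 and matplotlib 3.10.9 were used.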

Additional observations from a re-analysis of the deposited data

Results flagged for a closer look

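In 132 groups of libraries examined (5 vehicle or 7 AAV-miR-34b/c values of a list or of a leading gene), 6 held a library set apart from the rest of its group by Dixon's criterion, and chance gives about 6.6. In vehicle 2 the mean log2 CPM of sinusoidal endothelial genes was 4.308, the lowest of its group, against 4.451 in the next library. Vehicle 2 also had the lowest log2 CPM of Tmem176b, at 7.135 against 7.744, and of Mt1, at 9.883 against 11.02. Cfl1 stood highest in vehicle 3, at a log2 CPM of 5.695 against 5.204, and lowest in AAV-miR-34b/c 2, at 6.187 against 6.593. Lyve1 stood highest in vehicle 5, at a log2 CPM of 4.641 against 4.051. For the 4 genes named, each of these libraries stayed on its own group's side, since all 7 AAV-miR-34b/c libraries lay above all 5 vehicle libraries.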

How the results depend on the processing

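Of 9290 genes, 2037 differed from vehicle. The count was 1902 without a filter, 1788 with at least 10 counts in every library, 2027 with DESeq2's size factors, 2433 by DESeq2, 2040 with all 3 groups in 1 fit, 2346 with library size only and 3839 by limma-voom with sample quality weights. Library size only moved the median of all genes from 0.02 to -0.13 and the share of higher genes among those that differed from 55.5% to 31.1%, so directions are relative to TMM scaling. Summing close pairs gave 331, leaving out AAV-miR-34b/c 1 and 2 gave 3878 and leaving out vehicle 1 and 4 gave 557. Leaving out 1 library gave 1267 (vehicle 4) to 2695 (AAV-miR-34b/c 1), with 1328 without vehicle 1. Same-numbered libraries correlated at 0.297, -0.257, 0.007, -0.096 and 0.058, and only 2 of 5 matched their own number best. A pairing by replicate number was thus not shown, though these correlations cannot exclude a weak one. With the replicate block over replicates 1 to 5, 922 genes differed, against 1206 in the same 10 libraries without the block.

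Of 209 named genes, 128 no longer passed with close pairs summed and 96 without vehicle 1 and 4. Signs turned only in genes that had not passed. Without vehicle 1 and 4, log2 fold changes became 0.63 for Ccn2, 0.27 for Pdgfra and 0.21 for Aif1. In the 10 libraries without the block Ccn2 was at 0.12 and Pdgfra at 0.0318, and with the block Pdgfra was at 0.0315. Apob was at 0.067 by the same limma-voom fit and at 0.066 without AAV-miR-34b/c 1 and 2. With single libraries left out, Ccn2 lay between -0.76 and 0.061, Apob between -0.21 and 0.039 and Aif1 between -0.29 and 0.0091. The cause was not tested. At these depths 14 of 30 activated stellate cell genes and 6 of 14 neutrophil genes could be tested.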
